A study of Mus musculus with 12 samples.

Results

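Catalytically active telomerase was compared with its inactive form in adipose tissue of mice on a high-fat diet (HFD). The 3 libraries of the HFD Tert group (replicates 25, 26 and 27) were set against the 3 of the HFD TertCi group (replicates 30, 31 and 33), chosen by their sample titles, out of 12 libraries in all. All 16713 genes that passed the count filter, of 24422 features counted, were tested. The question the design poses is what the activity of the enzyme adds once both groups carry the same kind of cassette.

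RNA-seq was made from the stromal vascular fraction, the mixture of progenitor, vascular and immune cells that remains when mature adipocytes are removed. HFD Tert mice were p21+/Tert and HFD TertCi mice p21+/TertCi: 1 allele of the p21 gene carries the cassette and the other is wild type, so both groups share the altered p21 allele and the diet. The other 6 libraries came from p21+/mCherry mice, 3 on the high-fat diet (HFD mCherry) and 3 on a standard diet (SD mCherry). The series' design text calls the high-fat diet controls p21+/-, and the sample labels were followed. The p21 promoter drives both Tert forms, so cassette RNA is limited to cells in which that promoter is active. Age, sex, fat depot, batch, the residue changed in TertCi and whether each library came from a separate animal are not given in the sources used here, so p-values measure the spread between these libraries, which may be technical.

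Tert is the reverse transcriptase of telomerase, which adds telomeric repeats to chromosome ends using the RNA Terc as template, and roles that need no catalysis have been described for it in Wnt and NF-kB signalling. p21, encoded by Cdkn1a, is an inhibitor of cyclin-dependent kinases that p53 induces when DNA or telomeres are damaged, and it marks many senescent cells. As background, p21-positive cells of obese fat have been described among progenitors, endothelial cells and macrophages.

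The promoter windows of Cdkn1a (17:29090979-29100722, plus strand, RefSeq GRCm38.p6, the assembly of the mm10 build) are shown because this promoter drives both cassettes. Each runs from 250 bases before to 50 after an annotated start, 5′ to 3′ on the plus strand. In the upstream window, chr17:29090729-29091028, capitals mark 2 matches to the p53 consensus decamer. At least 1 match is held by 8.36% of 32851 promoter windows of the same length. In the downstream window, chr17:29093519-29093818, capitals mark GGGCGG (2 matches) and TATAAG (1 match). At least 1 match is held by 35.7% of windows for GGGCGG and by 7.43% for TATAAG. Both strands were searched, the upstream window also holds TATAAG once on the minus strand, and a match is a description of the letters only.
Cdkn1a upstream window: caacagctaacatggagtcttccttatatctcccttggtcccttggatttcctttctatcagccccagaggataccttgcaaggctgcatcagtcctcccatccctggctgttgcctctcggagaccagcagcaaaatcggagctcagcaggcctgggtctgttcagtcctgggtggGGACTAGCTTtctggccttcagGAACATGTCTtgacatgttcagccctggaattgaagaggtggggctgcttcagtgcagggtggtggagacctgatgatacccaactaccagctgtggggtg
Cdkn1a downstream window: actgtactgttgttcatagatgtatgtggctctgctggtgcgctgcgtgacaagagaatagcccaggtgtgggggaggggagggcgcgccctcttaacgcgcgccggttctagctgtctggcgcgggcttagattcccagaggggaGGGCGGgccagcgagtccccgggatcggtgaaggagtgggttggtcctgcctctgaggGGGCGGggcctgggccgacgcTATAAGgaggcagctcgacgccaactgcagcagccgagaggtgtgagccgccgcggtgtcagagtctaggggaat

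Both groups carried cassette RNA, at levels that overlapped. Tert (13:73626911-73649843, plus strand) was at 8.99, 6.99 and 16.6 CPM (read counts scaled to library size) in HFD Tert and at 9.54, 14.7 and 15.2 CPM in HFD TertCi. The 2 groups overlapped, and all 6 libraries lay above the 1.02 to 1.66 CPM of HFD mCherry. The group means were 10.9 ± 5.05 and 13.2 ± 3.16 CPM (SD, n = 3), and the log2 difference of -0.34 gave a 2-sided exact permutation p of 0.6, where 3 libraries against 3 cannot go below 0.1. In edgeR, the 95% interval of the difference ran from -1.62 to 1.06 on the log2 scale. The added mCherry_Tert feature, whose sequence is not described, had 33, 37 and 48 counts in HFD Tert, 41, 86 and 57 in HFD TertCi, and 0 in the 6 mCherry libraries. Its log2 difference was -0.52 (exact permutation p = 0.2). How reads are split between Tert and mCherry_Tert is not stated, and neither feature tells the active from the inactive form, so the active and inactive labels have no check in these data.

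Cdkn1a, which hosts the cassettes, was at 237, 267 and 433 CPM in HFD Tert and at 222, 478 and 265 CPM in HFD TertCi. Replicates 27 and 31 were the high libraries of their groups, and the groups overlapped. The log2 difference was -0.012 (exact permutation p = 1), and its sign turned when Tert replicate 25 (0.16), Tert replicate 26 (0.076) or TertCi replicate 31 (0.31) was left out. Per 100 Cdkn1a counts there were 3.79, 2.62 and 3.82 Tert counts in HFD Tert and 4.29, 3.09 and 5.76 in HFD TertCi, again overlapping (log2 difference -0.34, exact permutation p = 0.4). The plot of cassette transcripts by library shows these values with those of the mCherry groups.

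**Figure D1:**
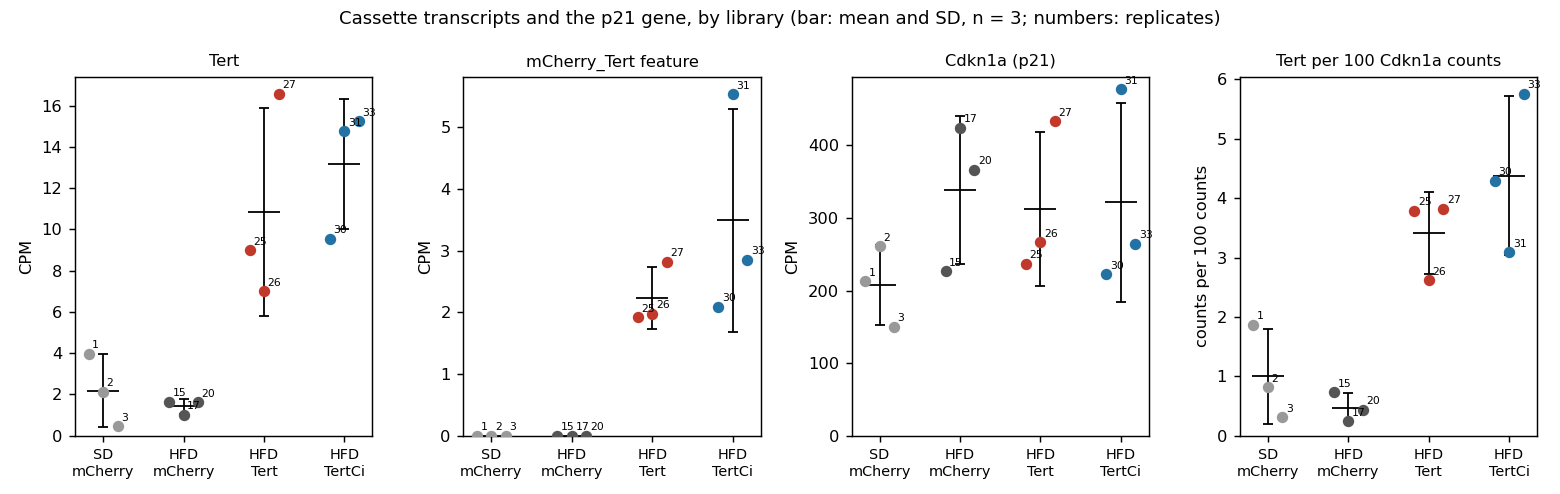
Levels of Tert, mCherry_Tert and Cdkn1a in CPM, and Tert counts per 100 Cdkn1a counts, in the 12 libraries by group; points are libraries with their replicate number, and bars give the mean and SD (n = 3). Tert reached 6.99 to 16.6 CPM in the HFD Tert and HFD TertCi libraries, which overlap, against at most 3.97 CPM in the mCherry groups.

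The 6 libraries differed from one another in make-up in a way that crossed the groups. Crisp1, a secretory gene of the epididymis, was at 7974, 3064 and 0.529 CPM in Tert replicates 25, 26 and 27, and at 9600.4, 0 and 7813 CPM in TertCi replicates 30, 31 and 33. So 1 library of each group lacked it, as did 1 of each mCherry group (4 of 12 libraries under 1 CPM). Tert replicate 27 and TertCi replicate 31 were closest to each other (Spearman correlation over genes 0.979) and less like the other 4 (0.886 to 0.933), which were 0.956 to 0.983 with each other. The 6 libraries held 16430330 to 19266949 counts and 16231 to 18341 detected genes, with the fewest genes in replicates 27 and 31.

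The same split ran through the cell type markers, which were used as lists. The epithelium list stood at a mean log2(CPM + 0.1) of 7.03, 6.18 and -0.42 in HFD Tert and 6.87, 3.82 and 6.15 in HFD TertCi, lowest in replicates 27 and 31. Myh11, the smooth muscle myosin heavy chain, was at 3439, 4767 and 234 CPM against 3029, 342 and 2744 CPM. Gpnmb, a gene of lipid-laden macrophages, was at 22.3, 25.8 and 308 CPM against 31.9, 226 and 35.6 CPM, so it was high where Myh11 was low. The progenitor marker Pdgfra (74.3, 61.3 and 89.6 against 64.3, 56.7 and 63.9 CPM) and the endothelial marker Cdh5 (369, 490 and 839 against 357, 694 and 616 CPM) were present in all 6 libraries, so defining markers of the labelled stromal fraction were detected. In bulk RNA, fewer cells of a type and less RNA per cell cannot be told apart.

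**Figure D2:**
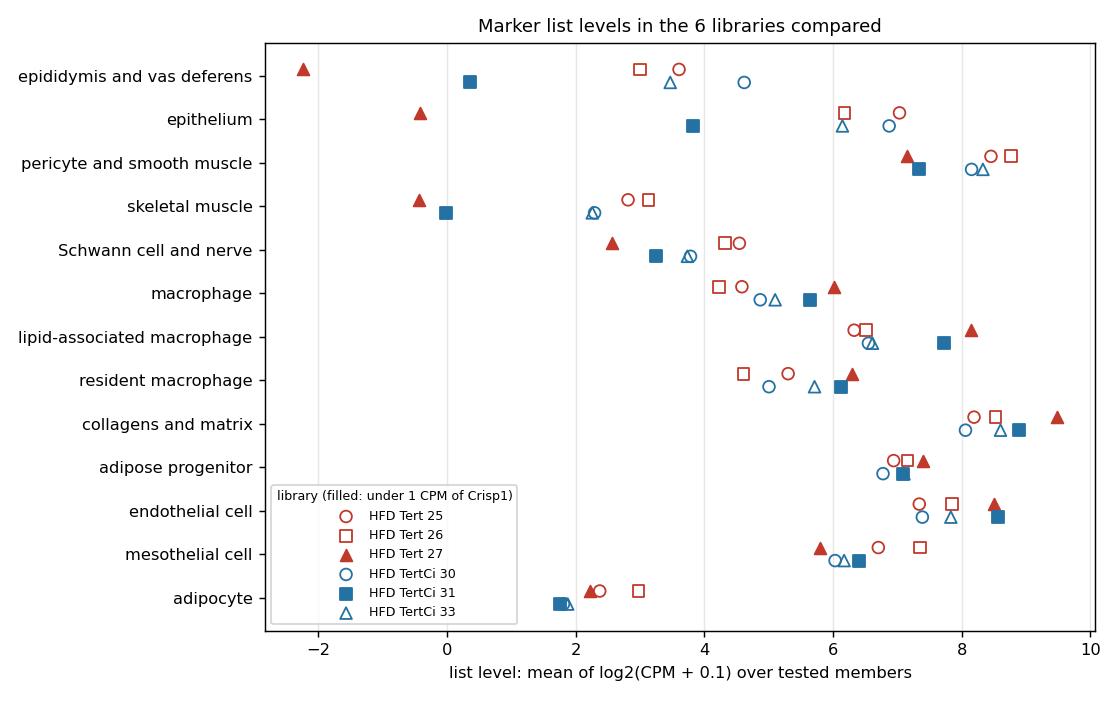
Level of 13 lists, as the mean of log2(CPM + 0.1) over their tested members, in the 3 HFD Tert (red) and 3 HFD TertCi (blue) libraries; filled symbols are the 2 libraries under 1 CPM of Crisp1. Those 2 libraries, Tert 27 and TertCi 31, lie lowest for epididymis, epithelium, smooth muscle and skeletal muscle and highest for the 3 macrophage lists.

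Against this spread, no gene was called different between active and inactive Tert. With edgeR's quasi-likelihood test, 0 of 16713 genes (0.00%) had an adjusted p under 0.05, and the smallest adjusted p was 1. At an unadjusted p under 0.05 there were 227 genes (1.36%), 128 higher (0.766%) and 99 lower (0.592%) in HFD Tert. The 2 groups did not overlap for 857 genes (5.13%), 426 higher (2.55%) and 431 lower (2.58%). The limma-voom fit also called 0 genes, with 119 at an unadjusted p under 0.05. DESeq2 called 7 of 16536 genes with an adjusted p (0.0423%), named below with their values.

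The fit did bound many differences. For 7401 genes (44.3%) the 95% interval of the fold change lay inside 2-fold in either direction, and for 12843 (76.8%) inside 4-fold. Of the 10214 genes whose average over the 6 libraries reached 10 CPM, 6816 (66.7%) were inside 2-fold. For the other genes the interval includes a change of 2-fold or more.

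**Figure D3:**
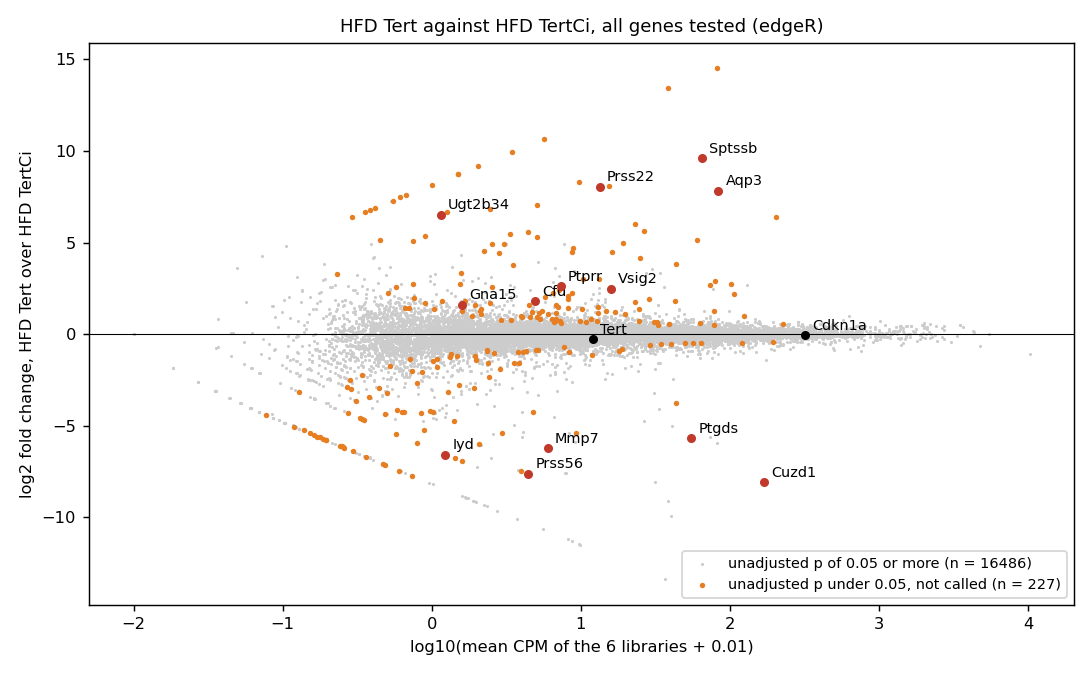
Log2 fold change of HFD Tert over HFD TertCi (edgeR) against the mean level of the 6 libraries, on a log10 axis, for 16713 genes; orange points had an unadjusted p under 0.05 (227 genes) and none was called. Tert and Cdkn1a (black) lie near 0, while the wide spread comes from genes such as Sptssb and Cuzd1 (red, with other named genes).

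The gene with the smallest p-value of all was Cfd (10:79890853-79892655, plus strand), which encodes adipsin, the complement factor D that adipocytes secrete. It was at 5.72, 13.2 and 3.996 CPM in HFD Tert and at 1.89, 2.77 and 1.90 CPM in HFD TertCi. Each HFD Tert library lay above each HFD TertCi library, and both groups lay above HFD mCherry (0.387, 0.421 and 0.418 CPM). SD mCherry was at 19.2, 15.8 and 10.1 CPM, which Tert replicate 26 overlapped. The difference was 1.81 on the log2 scale (SE 0.456, 95% interval 0.80 to 2.81), with an unadjusted p of 0.00237 and an adjusted p of 1 in edgeR, and it did not pass the adjusted test. DESeq2 gave an adjusted p of 0.36. The 20 alternative fits drew on the same libraries in which Cfd was picked by its p-value, so they are no independent check. The difference stayed above 0 in each, from 1.15 without Tert replicate 26 to 2.33, with an unadjusted p under 0.05 in each. Among the 4 libraries with Crisp1 transcripts it was 2.32, with an unadjusted p of 0.00079 and an adjusted p of 1 in edgeR.

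The adipocyte markers as a list, which includes Cfd, leaned the same way without passing a test. Of its 12 markers, Cfd among them, 11 had a positive log2 fold change, with a median of 0.76 against -0.011 over all genes, of which 48.2% were above 0. With 1 library left out at a time the median of these markers ran from 0.50 (without Tert replicate 26) to 0.95 (without Tert replicate 25). Cfd alone had an unadjusted p under 0.05, and it and Acvr1c did not overlap between groups, against 1.36% and 5.13% of all genes. Adipoq, which encodes the hormone adiponectin, was at 2.22, 7.85 and 3.23 CPM in HFD Tert and at 2.09, 4.57 and 1.85 CPM in HFD TertCi (log2 fold change 0.65, 95% interval -0.90 to 2.20, edgeR adjusted p = 1). Retn, which encodes resistin, was at 1.34, 3.95 and 4.05 against 0.663, 1.996 and 1.75 CPM, and Plin4, a lipid droplet protein gene, at 81.3, 99.7 and 11.2 against 45.9, 18.1 and 44.8 CPM. Both overlapped between the groups, with intervals of -0.86 to 3.02 and -0.62 to 2.26 on the log2 scale. Lep, which encodes leptin, had a log2 fold change of -0.067.

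**Figure D4:**
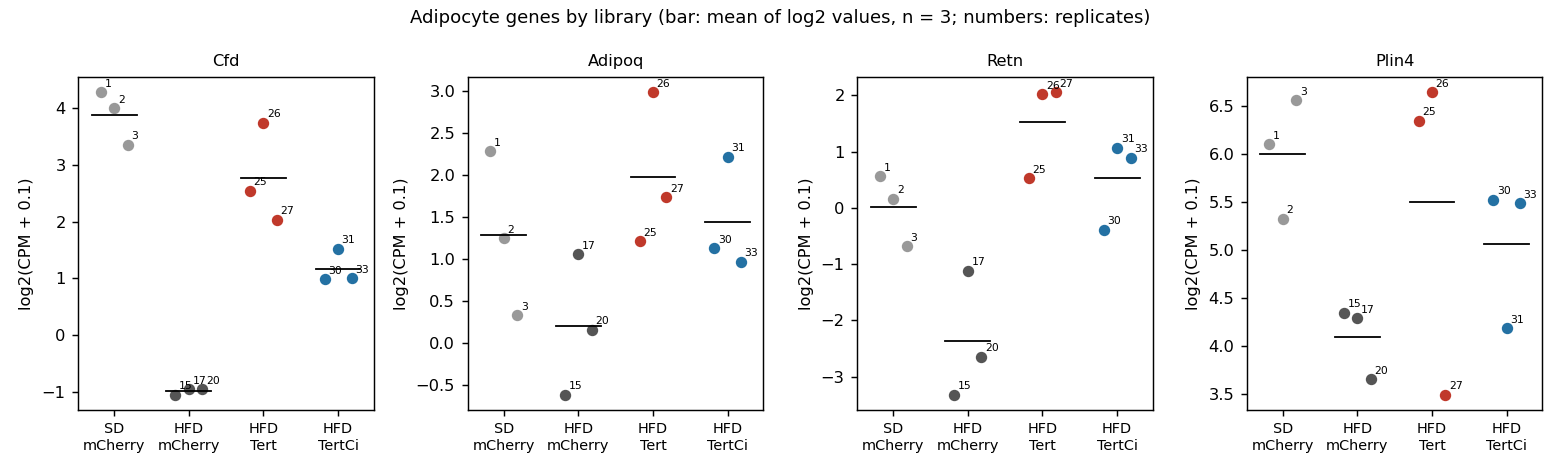
Log2(CPM + 0.1) of Cfd, Adipoq, Retn and Plin4 in the 12 libraries by group, with replicate numbers and the mean of each group (n = 3). For Cfd the 3 HFD Tert libraries lie above the 3 HFD TertCi libraries, and for Adipoq, Retn and Plin4 the 2 groups overlap.

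The list for adipocyte formation shares genes with these markers. Of its 20 genes 15 had a positive log2 fold change (median 0.38, or 0.17 without Tert replicate 27), and Cfd was the 1 with an unadjusted p under 0.05. The regulators of the programme overlapped: Pparg, its master transcription factor, was at 18.3, 28.9 and 47.1 against 16.3, 31.1 and 21.2 CPM, and Cebpa at 36.6, 38.7 and 38.5 against 31.2, 48.0 and 28.2 CPM. Their log2 fold changes were 0.46 (95% interval -0.69 to 1.61) and 0.085 (-0.68 to 0.85). For brown and beige adipocyte genes 9 of 12 were tested, 6 were above 0 and the median was 0.27, from 0.12 without Tert replicate 25 to 0.55 without TertCi replicate 30.

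The 3 genes that DESeq2 called higher in HFD Tert were high in 2 of its 3 libraries. Aqp3 (4:41092724-41098183, minus strand), which encodes a water and glycerol channel of epithelia, was at 259, 239 and 0.235 CPM in HFD Tert and at 1.07, 0.322 and 0.752 CPM in HFD TertCi. Sptssb (3:69819538-69861363, minus strand), a subunit gene of serine palmitoyltransferase, was at 180, 208 and 0.176 against 0.102, 0 and 0.351 CPM. Prss22 (17:23993534-24000722, minus strand), a serine protease gene of epithelia, was at 52.7, 27.3 and 0.118 against 0.102, 0.193 and 0 CPM. All 3 were high in Tert replicates 25 and 26 and not in 27, which overlapped HFD TertCi, and both Aqp3 (132 CPM) and Sptssb (215 CPM) were also high in SD mCherry replicate 2, which carries no Tert cassette. DESeq2 called these 3 (adjusted p 0.00845, 0.00212 and 0.00205), and edgeR did not (log2 fold changes 7.83, 9.60 and 8.05, adjusted p = 1 each).

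Krt7, a keratin of simple and urinary epithelia, followed the same libraries at 251, 256 and 18.7 against 26.8, 32.3 and 20.4 CPM, with 224 CPM in SD mCherry replicate 2. Upk1b, a uroplakin of urothelium and mesothelium, was at 217, 261 and 49.2 against 21.2, 60.6 and 32.7 CPM, with 215 CPM in SD mCherry replicate 2. Replicate 27 overlapped HFD TertCi for both (log2 fold changes 2.73 and 2.20, 95% intervals 0.073 to 5.38 and 0.13 to 4.28, edgeR adjusted p = 1 for both). As a list, the epithelium markers had 3 of 12 above 0 and 9 below, with a median log2 fold change of -0.47. That median ran from -1.29 without Tert replicate 25 to 0.18 without TertCi replicate 30. Besides Krt7, the other 11 of the 12 epithelium markers had no unadjusted p under 0.05: Epcam, the general epithelial adhesion gene, was at 152, 66.1 and 3.23 against 269.7, 20.9 and 136 CPM. The part of the epithelial share in these differences was not tested. With the epithelium score, which includes Krt7, as a covariate edgeR called 0 genes, as it did without it, so this count does not bear on that share. Genes with an unadjusted p under 0.05 were 646 with the score and 227 without.

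Non-overlapping groups, an average of 1 CPM or more and an unadjusted p under 0.05 were found together for 90 of the 16713 genes, 52 higher and 38 lower in HFD Tert. The 12 highest were Ugt2b34, Pof1b, Mroh6, Mgst2, Ptprr, Vsig2, Unc5a, Cfd, Alx4, Gm19557, Tnni2 and Gna15. Ptprr (10:116018188-116274932, plus strand), a tyrosine phosphatase gene that acts on MAP kinases, was at 16.5, 15.6 and 5.70 against 1.94, 2.25 and 1.95 CPM (log2 fold change 2.62, 95% interval 0.85 to 4.39, edgeR adjusted p = 1). Vsig2, an immunoglobulin-family membrane protein gene, was at 29.2, 38.3 and 13.2 against 4.54, 5.09 and 4.71 CPM (log2 fold change 2.49, 95% interval 0.42 to 4.56). In both, replicate 27 was the lowest HFD Tert library, and its place above HFD TertCi was set by the choice of genes without overlap. SD mCherry replicate 2 reached 14.4 CPM for Ptprr and 30.7 CPM for Vsig2.

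Gna15, Alx4 and Tnni2 were members of the set at low levels. Gna15 (10:81502313-81524447, minus strand), which encodes a G protein alpha subunit of blood cells and epithelia, was at 2.92, 2.72 and 1.53 against 1.07, 0.451 and 0.802 CPM (log2 fold change 1.61, 95% interval 0.48 to 2.74). Alx4, a homeobox gene of mesenchyme, was at 1.75, 1.76 and 1.88 against 0.663, 0.258 and 0.602 CPM (log2 fold change 1.80, 95% interval 0.41 to 3.19). Tnni2, a fast skeletal muscle troponin gene, was at 3.56, 4.16 and 1.12 against 0.867, 0.901 and 1.10 CPM. Gna15 and Tnni2 were lowest in replicate 27 within HFD Tert. The Alx4 values were the most even within HFD Tert, but HFD mCherry (0.884, 1.08 and 2.39 CPM) overlapped HFD Tert and lay above each HFD TertCi library, and for Gna15 HFD mCherry stood at 1.77 to 3.28 CPM, nearer HFD Tert. Of the named genes, Cfd, Ptprr and Gna15 kept an unadjusted p under 0.05 in each of the 20 alternatives. These 3 were chosen by their p-value and lack of overlap, and the alternatives refit the same libraries, so this is no independent check. Ugt2b34 had 74, 39 and 7 counts against 0, 0 and 1. Gm19557 overlaps Stn1 on the opposite strand, and the use of strand in counting is not stated.

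The 12 lowest included Cuzd1, Prss56, Marcksl1-ps4, Iyd, Mmp7, Dao, Ptgds, AV064505, Dcdc2a, Ccdc153 and Gstm7, of which Mmp7 and Ptgds encode secreted proteins. Cuzd1 was at 2.51, 1.23 and 0 CPM in HFD Tert and at 938, 63.2 and 10.8 CPM in HFD TertCi (log2 fold change -8.07, 95% interval -14.87 to -1.27, edgeR adjusted p = 1). Ptgds, a prostaglandin D synthase gene, was at 3.38, 2.14 and 0.764 against 298, 22.6 and 3.76 CPM. TertCi replicate 30 was the highest of the 6 libraries for all 12. Without it the log2 fold change was -4.88 for Cuzd1 and -2.64 for Ptgds.

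Mmp7 (9:7692090-7699585, plus strand), which encodes the epithelial protease matrilysin, was at 0.467, 0 and 0 CPM against 19.0, 9.53 and 6.97 CPM (log2 fold change -6.21, 95% interval -10.42 to -2.001), where the lack of overlap was set by the choice of genes. The opposite-strand gene AV064505 overlaps it, at 0.117, 0 and 0.176 against 3.72, 2.51 and 1.90 CPM, so their reads cannot be told apart without strand. Prss56 (1:87183102-87188405, plus strand), a serine protease gene, had 1, 0 and 1 counts against 395, 14 and 105. Iyd, a deiodinase gene, had 0, 1 and 0 counts against 105, 15 and 19. Other groups bracket these levels: Mmp7 was at 130, 199 and 27.9 CPM in SD mCherry and at 47.8, 0 and 19.2 CPM in HFD mCherry.

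DESeq2 called Prss56 (adjusted p = 0.00406) and 3 genes with 0 counts in the HFD Tert libraries. Crisp4, a cysteine-rich secretory protein gene of the epididymis, had 181, 4 and 0 counts in HFD TertCi, and Spink10, a protease inhibitor gene, had 650, 0 and 0. Defb29, a beta-defensin gene, had 33, 6 and 1. For Spink10 the counts came from TertCi replicate 30 alone. In edgeR their unadjusted p was 0.108, 0.0887 and 0.0992. The epididymis and vas deferens markers as a list had 3 of 13 tested members above 0 and a median of -0.66, which rested on single libraries: it was -0.0062 without TertCi replicate 30 and -1.82 without Tert replicate 25. On that list Adam7, at 5.02, 2.88 and 0 against 325, 149 and 6.12 CPM, and Spag11b, at 0 in HFD Tert against 0.102, 58.8 and 0.602 CPM, did not overlap between the groups, while Crisp1 and Akr1b7 did.

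For most genes of telomere upkeep the fit bounded the difference. Of 19 genes of telomerase and shelterin 18 were tested, 6 were above 0 and the median log2 fold change was -0.055 (-0.058 without TertCi replicate 33 to 0.024 without TertCi replicate 30). None had an unadjusted p under 0.05, and for 14 the 95% interval lay inside 2-fold. Dkc1, which encodes the dyskerin that holds the telomerase RNA, was at 16.9, 15.2 and 22.6 against 14.7, 23.6 and 16.8 CPM, and Terf2, which protects chromosome ends in shelterin, at 26.8, 33.1 and 33.6 against 29.99, 32.8 and 27.9 CPM. Terc, which is poorly captured by poly-A selection, had at most 0.35 CPM in these 6 libraries and was not tested.

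For 18 p53 targets the median was -0.020 (-0.18 without Tert replicate 27 to 0.10 without TertCi replicate 31), with 8 above 0, none at an unadjusted p under 0.05 and 12 bounded inside 2-fold. Mdm2, the p53 ubiquitin ligase gene, was at 95.3, 108 and 187 against 99.8, 157 and 109 CPM. For the DNA damage response 4 of 18 genes were above 0, 1 had an unadjusted p under 0.05 (1.36% of all genes did) and 0 were called. The median was -0.20, staying between -0.28 and -0.14 with any 1 library left out. The 2 groups did not overlap for Trp53bp1, which encodes a protein that binds DNA breaks.

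For senescence and its secretome the median over 20 genes was -0.041, with 7 above 0 and none under 0.05. It was -0.37 without Tert replicate 27 and 0.14 without TertCi replicate 31, so 1 library set its sign. Cdkn2a, the p16 gene, was at 0.525, 0.908 and 0.47 against 0.255, 1.996 and 0.652 CPM, near its detection limit. Hmgb1, a chromatin protein gene, was even within groups at 149, 149 and 151 against 113, 119.9 and 103 CPM (log2 fold change 0.42, 95% interval -0.0064 to 0.85). Glb1, the gene of the beta-galactosidase used to stain senescent cells, was at 31.7, 32.0 and 29.0 against 48.3, 32.9 and 42.9 CPM (log2 fold change -0.42, 95% interval -0.89 to 0.047). Proliferation genes had a median of 0.010 over 20 genes with none under 0.05, from -0.38 without Tert replicate 27 to 0.24 without Tert replicate 25.

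In the pathways linked to non-catalytic Tert, 2 of 16 Wnt targets had an unadjusted p under 0.05, in opposite directions, against 1.36% of all genes. Nkd2 (13:73818534-73847631, minus strand), which encodes a feedback inhibitor of Wnt signalling, was at 6.59, 4.86 and 4.35 against 2.75, 2.25 and 2.96 CPM (log2 fold change 0.99, 95% interval 0.26 to 1.71, edgeR adjusted p = 1). Nkd2 lies close to the Tert gene (13:73626911-73649843), while the cassettes sit at Cdkn1a on chromosome 17. Sp5 (2:70474923-70477726, plus strand), a direct target transcription factor gene, was at 0.700, 0.267 and 0.176 against 4.23, 2.58 and 1.15 CPM (log2 fold change -2.78, 95% interval -4.97 to -0.59, edgeR adjusted p = 1). Neither overlapped between HFD Tert and HFD TertCi. For Nkd2, HFD mCherry (4.47, 3.13 and 3.76 CPM) overlapped HFD Tert and lay above each HFD TertCi library. For Sp5, HFD mCherry (4.09, 0.301 and 1.37 CPM) overlapped both groups. Axin2, the common readout of the pathway, was at 4.20, 5.61 and 5.05 against 10.2, 4.18 and 5.51 CPM, and the list median was 0.19 with 11 above 0. That median was -0.13 without Tert replicate 25, -0.042 without TertCi replicate 31 and 0.51 without Tert replicate 27.

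The 20 NF-kB and inflammation genes had a median of -0.10, with 5 above 0 and none under 0.05. It was -0.50 without Tert replicate 27 and 0.18 without TertCi replicate 31. Il6, an inflammatory cytokine gene, was at 813, 1069 and 1922 against 596, 1692 and 878 CPM, high in replicates 27 and 31. For 18 interferon-stimulated genes 2 were above 0 and the median was -0.22. Ifit1, an antiviral effector gene, was at 68.1, 58.4 and 307 against 116, 299 and 132 CPM, and the list median ran from -0.70 without Tert replicate 27 to 0.030 without Tert replicate 26. Myc and ribosome biogenesis (17 genes, median -0.071, 14 bounded inside 2-fold), mitochondrial respiration (18 genes, median -0.017, 15 bounded) and antioxidant genes (16 genes, median -0.052, 11 bounded) lay near 0. So did immediate early genes (16 genes, median 0.024), and glycolysis and hypoxia genes had a median of 0.15 over 16 genes. With 1 library left out the medians ran from -0.14 to 0.15 for Myc and ribosome biogenesis, -0.15 to 0.18 for respiration, -0.13 to 0.086 for antioxidant genes, -0.12 to 0.14 for immediate early genes and 0.095 to 0.25 for glycolysis and hypoxia. None of these 7 lists had a member with an unadjusted p under 0.05.

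All 20 collagen and matrix genes had a positive log2 fold change (median 0.28), and this rested on 1 library. Col3a1, a fibrillar collagen gene, was at 807, 1128 and 3676 against 836, 1929 and 1412 CPM, with replicate 27 highest. Without Tert replicate 27 the list median was -0.19, and among the 4 libraries with Crisp1 transcripts it was -0.0001. Col12a1 differed in pattern, at 44.2, 49.2 and 26.6 against 28.9, 21.9 and 24.8 CPM (log2 fold change 0.67, 95% interval 0.018 to 1.31, edgeR adjusted p = 1). Over the 16 gene lists, 276 genes were tested, 0 were called and 5 had an unadjusted p under 0.05, against 227 of 16713 (1.36%) over all genes.

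**Figure D5:**
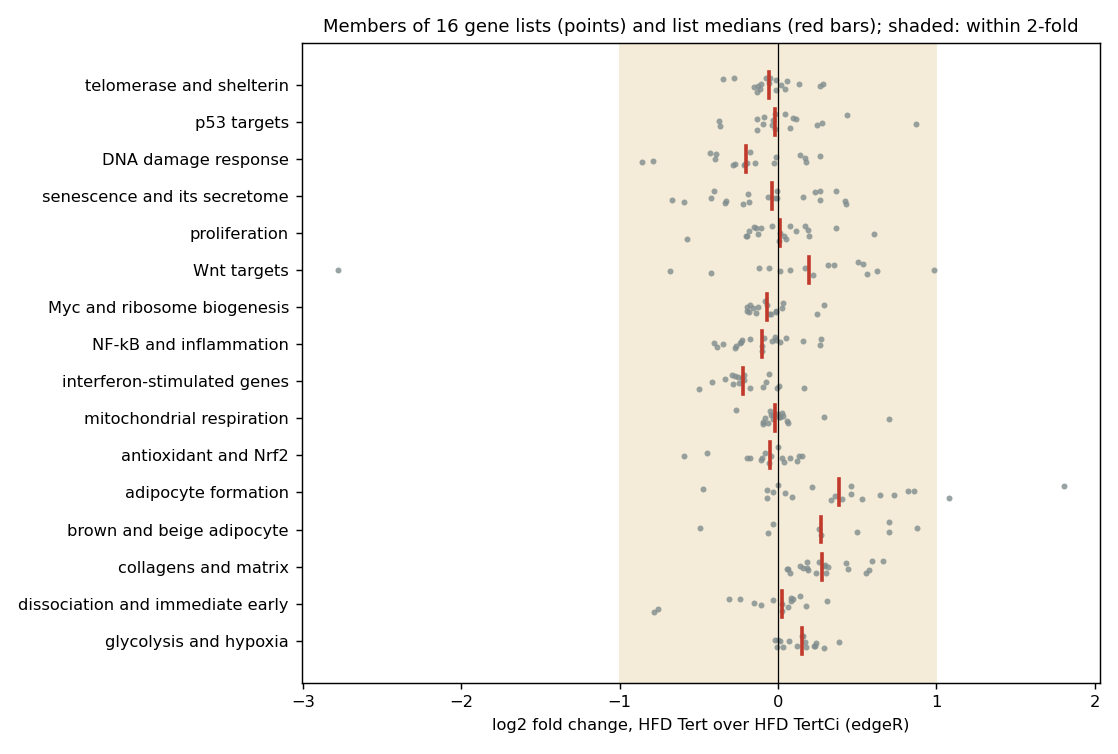
Log2 fold changes of HFD Tert over HFD TertCi (edgeR) for the tested members of 16 gene lists (points; 276 different genes, some on more than 1 list), with the median of each list as a red bar and the range within 2-fold shaded. Most members lie inside the shaded range; Cfd at 1.81 and Sp5 at -2.78 lie farthest outside it.

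Marker lists of immune cells gave no call. Macrophage markers had a median of -0.020 over 16 genes with 7 above 0, and resident macrophage markers -0.019 over 14 with 7 above 0. Without Tert replicate 27 these medians were -0.78 and -0.85, and among the 4 libraries with Crisp1 transcripts -0.57 and -0.48. Without TertCi replicate 31 the resident macrophage median was 0.25, and without Tert replicate 26 the macrophage median was 0.29. For lipid-associated macrophages 14 of 15 were above 0 with a median of 0.25, which became -0.37 without Tert replicate 27. T and NK cell markers had 1 of 12 above 0 (median -0.53), B cell markers 1 of 8 (median -0.46) and dendritic cell markers 2 of 10 (median -0.21). These 3 medians stayed below 0 in each of the 20 alternatives, that of T and NK cells from -0.83 to -0.35 and that of B cells from -0.67 to -0.19 with 1 library left out (highest without Tert replicates 25 and 26, respectively), and that of dendritic cells from -0.79 without Tert replicate 27 to -0.041 without TertCi replicate 31. None of their members had an unadjusted p under 0.05. Cd3e, a T cell receptor gene, was at 0.175, 0.854 and 0.529 against 1.22, 0.258 and 1.05 CPM, which overlap. At this level 1 library can set the direction of a single gene. Other members of these 3 lists were lower in each HFD Tert library than in each HFD TertCi library. They were 2 T and NK cell, 2 dendritic cell and 1 B cell markers, where 2.58% of all genes had this pattern. The reverse pattern was found for 0 markers on these lists and for 2.55% of all genes. Neutrophil (median 0.081 over 6) and mast cell markers (0.016 over 9) had no member with an unadjusted p under 0.05, and without Tert replicate 26 the neutrophil median was -0.76.

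Among structural cells, all 14 pericyte and smooth muscle markers were above 0 (median 0.35), as were 10 of 11 mesothelial (median 0.34, Upk1b under 0.05), 10 of 10 skeletal muscle (median 0.49, Tnni2 under 0.05) and 9 of 10 Schwann cell and nerve markers (median 0.28). Without Tert replicate 26 the medians were 0.055 for pericyte and smooth muscle, 0.041 for mesothelial and 0.26 for skeletal muscle markers, and without Tert replicate 25 that of nerve was 0.14. Progenitor markers had 11 of 16 above 0 (median 0.15, or -0.069 without Tert replicate 27) and endothelial markers 5 of 16 (median -0.051, or -0.38 without Tert replicate 27 and 0.39 without TertCi replicate 31). Erythrocyte genes had a median of 0.30 over 9, which was -0.77 without Tert replicate 26. Of 483 genes tested on all 35 lists, 0 were called and 8 had an unadjusted p under 0.05, against 227 of 16713 (1.36%) over all genes.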

How the data were processed

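Counts per gene were deposited by the authors as raw read counts, 1 table of 24422 features per library. Per the submitters' processing notes, mm10, Subread, SAMtools and featureCounts 1.6.4 were used. The annotation and strand setting are not given in the sources used here. RNA was poly-A selected, per the labels' protocols. From the counts, edgeR 4.0.16 (R 4.3.3) kept 16713 genes by filterByExpr, scaled libraries by TMM (factors 0.854 to 1.15) and fitted 1 robust quasi-likelihood model to 12 libraries in 4 groups (8 residual degrees of freedom, common biological coefficient of variation 0.536). The contrast was HFD Tert minus HFD TertCi, 2-sided, with Benjamini-Hochberg adjustment, called at an adjusted p under 0.05. CPM uses the TMM-scaled library size. Single values were compared by exact permutation on log2(CPM + 0.1). DESeq2 1.42.0 and limma 3.58.1 were alternatives. Named genes were those called by edgeR or DESeq2, the 12 highest and 12 lowest among genes with an unadjusted p under 0.05, non-overlapping groups and an average of 1 CPM or more, Tert, mCherry_Tert, Cdkn1a, and list members. The members, the 16 gene lists and the 19 marker lists were chosen with earlier results of these data known. Promoters and positions are from RefSeq GRCm38.p6 (24313 of 24422 symbols matched), and overlapping genes from GENCODE M21. The fit was run on simulated counts with known changes, and how many it recovers at the spread of these libraries is not given here. Some items are not reported here.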

Additional observations from a re-analysis of the deposited data

How the results depend on the processing

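The count of 0 called genes held under the edgeR and limma-voom alternatives. DESeq2 called 7, and 6 when run on the 4 libraries with Crisp1 transcripts, an alternative chosen after seeing the data, of which 5 were among the 7. The log2 difference of Cdkn1a ran from -0.27 to 0.31 when 1 library was left out (-0.35 to 0.36 in edgeR), and was 0.054 in edgeR and 0.055 in DESeq2 on those 4 libraries. Without TertCi replicate 30, Spink10 had no counts and no value. Of 761 other fits of named genes 756 kept their direction, as did 611 of 700 list medians. Leaving out Tert replicate 27 gave 539 genes with an unadjusted p under 0.05 and leaving out Tert replicate 26 gave 108, against 227, and the epithelium score as a covariate, added after seeing the data, gave 646. No paired analysis was possible because replicates 25, 26 and 27 have no same-numbered partner among 30, 31 and 33.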

Other observations

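Genes of urothelium and of the male tract outside the named set, chosen after their values were seen, differed widely between libraries of 1 group. Psca, a surface antigen gene of bladder and other epithelia, was at 264, 224 and 0 CPM in HFD Tert, 0 in each HFD TertCi library and 267 CPM in SD mCherry replicate 2. Upk3a, a uroplakin gene of urothelium, was at 109.6, 122 and 0 CPM in HFD Tert, 0 in HFD TertCi and 141 CPM in SD mCherry replicate 2. Both were thus high in the libraries in which Aqp3 and Sptssb were high. Sprr1a, a cornified envelope gene, followed them at 705, 496 and 1.82 against 10.9, 0.644 and 2.86 CPM, with 784 CPM in SD mCherry replicate 2.

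Defb22, a beta-defensin gene of the epididymis, was at 221 CPM in TertCi replicate 30 and at 0 in the other 5 libraries of the comparison, and at 834 and 291 CPM in SD mCherry replicate 1 and HFD mCherry replicate 15. Wfdc13 was at 238 CPM in TertCi replicate 30 and between 0 and 1.10 CPM in the other 5, with 299.8 and 279 CPM in the same 2 mCherry libraries. Each of the 4 groups except HFD Tert thus had 1 library with these transcripts at over 100 CPM.

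Genes near the Cdkn1a locus, where the 2 cassettes sit, were looked at as a region. Of 429 tested genes within 10 Mb of Cdkn1a, 9 (2.10%) had an unadjusted p under 0.05 in edgeR, against 1.36% of all genes, and edgeR called none. The groups did not overlap for 17 (3.96%), against 5.13% of all genes. The median log2 fold change of the region was -0.071. Prss22, which DESeq2 called, was among the 9, and whether the region differs from the rest was not tested.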
